A study of Homo sapiens with 12 samples.

Results

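The 10 genes described here encode subunits of the Polycomb repressive complexes and were taken by symbol from 60708 gene identifiers. Each symbol matched 1 identifier, and all 10 passed the filter on low counts that left 15388 genes for testing. Messenger RNA had been sequenced from hTERT RPE-1, a telomerase-immortalised human line labelled as pigmented epithelium of the retina. Of 4 stable lines, mCherry_3 and mCherry_4 overexpressed the fluorescent protein mCherry and served as controls, and LmnB1_6 and LmnB1_16 overexpressed a fusion of mCherry with lamin B1, which builds the filament mesh under the nuclear membrane. Each line is 1 clone, so that 2 clones stand for each construct. All 12 cultures, controls included, were given 0.05 ug/mL doxycycline over 24 hours and grew in medium with hygromycin B. Each clone gave 3 libraries described as biological replicates. The comparison of the constructs counts the 6 libraries of a construct as independent although they come from 2 clones, so its p-values can be too small. In a contrast between clones, a p-value reflects how the libraries of a clone vary, and not how clones of a construct do.

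Polycomb proteins keep developmental genes silent in cells that do not use them. PRC2 places the trimethyl mark on histone H3 through its enzyme EZH2 or EZH1, held by the core subunits EED and SUZ12, while JARID2 is an accessory subunit that helps to bring the complex to chromatin. PRC1 attaches ubiquitin to histone H2A through RING1 or RNF2 paired with a PCGF subunit such as BMI1, and the canonical form reads the mark of PRC2 through a chromodomain subunit such as CBX2 or CBX8. EZH2 is known as a gene of dividing cells, whereas EZH1 is also made in cells at rest.

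Total estimated counts were 20.6 to 29.48 M per library. LMNB1, which the construct carries, checked the labels: its mean level was 85.0 and 161 CPM (counts scaled to library size) in mCherry_3 and mCherry_4 against 3980 and 3370 in LmnB1_6 and LmnB1_16. The pigment epithelium genes RPE65, TYR, DCT and TTR had 0 counts in every library, while the epithelial keratins KRT8 and KRT18 were at 291 to 613 CPM in the means of the 4 clones. Of the 9 pigment epithelium markers that could be tested, 4 were called lower and 1 higher in the LmnB1 libraries (55.6%, against 17.8% of all genes), and their part in the results below was not tested. KRT8, KRT18 and RDH5, a retinol dehydrogenase, had log2 fold changes of -0.51, -0.58 and -0.51 (edgeR adjusted p = 0.019, 0.0215 and 0.0291), and SERPINF1, a secreted factor of pigment epithelium, had 1.46 at under 2 CPM (edgeR adjusted p = 0.0348). Without mCherry_3 0 were called lower (1 at an unadjusted p under 0.05) and without LmnB1_6 1 was, in fits chosen after seeing the data. MITF and OTX2, transcription factors of pigment epithelium named after their values were seen, were near 0 in LmnB1_6 (0.059 and 0.0 CPM). In mCherry_3, mCherry_4 and LmnB1_16 MITF was at 58.6, 49.0 and 31.3 CPM, and OTX2 at 12.6, 11.1 and 15.5. MITF was thus lower in LmnB1_16 than in the mCherry clones, and OTX2 was not. The 12 markers of leukocytes, endothelium, muscle, liver, glandular epithelium and glia together reached 1.01 to 4.13 TPM (abundance scaled by length and library size) in a library. Of the 3 of these markers that could be tested, edgeR and DESeq2 each called 0, with 1 lower in the LmnB1 libraries at an unadjusted p under 0.05.

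All 10 members were expressed in all 4 clones. Compared per length, RING1, BMI1, EZH2 and SUZ12 held the first 4 places in every clone, at 29.3 to 60.2 TPM, and CBX8 and CBX2 the last places, at 7.55 to 8.43 and 1.87 to 5.13 TPM. RING1 led in mCherry_3 (60.2 TPM) and EZH2 in LmnB1_16 (46.9 TPM). In LmnB1_6 RING1 (45.5 TPM) and EZH2 (44.7 TPM), and in mCherry_4 BMI1, RING1 and EZH2 (36.7, 36.7 and 36.5 TPM) lay closer than their spread. EED was the fifth in each clone (21.5 to 25.6 TPM). EZH1, JARID2 and RNF2 filled the sixth to eighth places at 9.96 to 21.0 TPM, in an order that differed between the clones. In mCherry_3 the levels of JARID2 (13.6 ± 0.201 TPM, SD, n = 3) and RNF2 (13.2 ± 1.86) did not differ beyond their spread.

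In the comparison of the 6 LmnB1 with the 6 mCherry libraries, 5 of the 10 members were higher and 0 were lower by edgeR's quasi-likelihood test at an adjusted p under 0.05. They were EZH2 and SUZ12 of PRC2 and RNF2, BMI1 and CBX2 of PRC1. None of the members was lower at an unadjusted p under 0.05 either, and DESeq2 called the same counts, 5 higher and 0 lower. Among all genes 17.8% were called in either direction and 8.58% were called higher, and the median log2 fold change was 0.15 over the members and 0.0 over all genes. In 4 members (EZH2, SUZ12, RNF2 and CBX2) every LmnB1 library lay above every mCherry library, as in 3.8% of all genes. EZH2, SUZ12 and CBX2 were also called higher against either control clone in both LmnB1 clones (4 contrasts), which held for 1.77% of all genes. Without mCherry_3 2 members were called in the construct comparison (EZH2 and CBX2), and without LmnB1_6 1 was (EZH2). The count of 3 over the clone contrasts fell to 1 when mCherry_4 replicate 1 or 2 or LmnB1_16 replicate 3 was left out. With counts summed to 1 value per clone, edgeR called 0 members (2 higher at an unadjusted p under 0.05, with no adjusted p under 0.778), and with clone as a random effect limma called 0 (4 higher at an unadjusted p under 0.05, with no adjusted p under 0.0869). Of all 15388 genes the summed fit called 0 and the random effect 163. A fit that calls no gene cannot tell members that differ from members that do not.

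**Figure D1:**
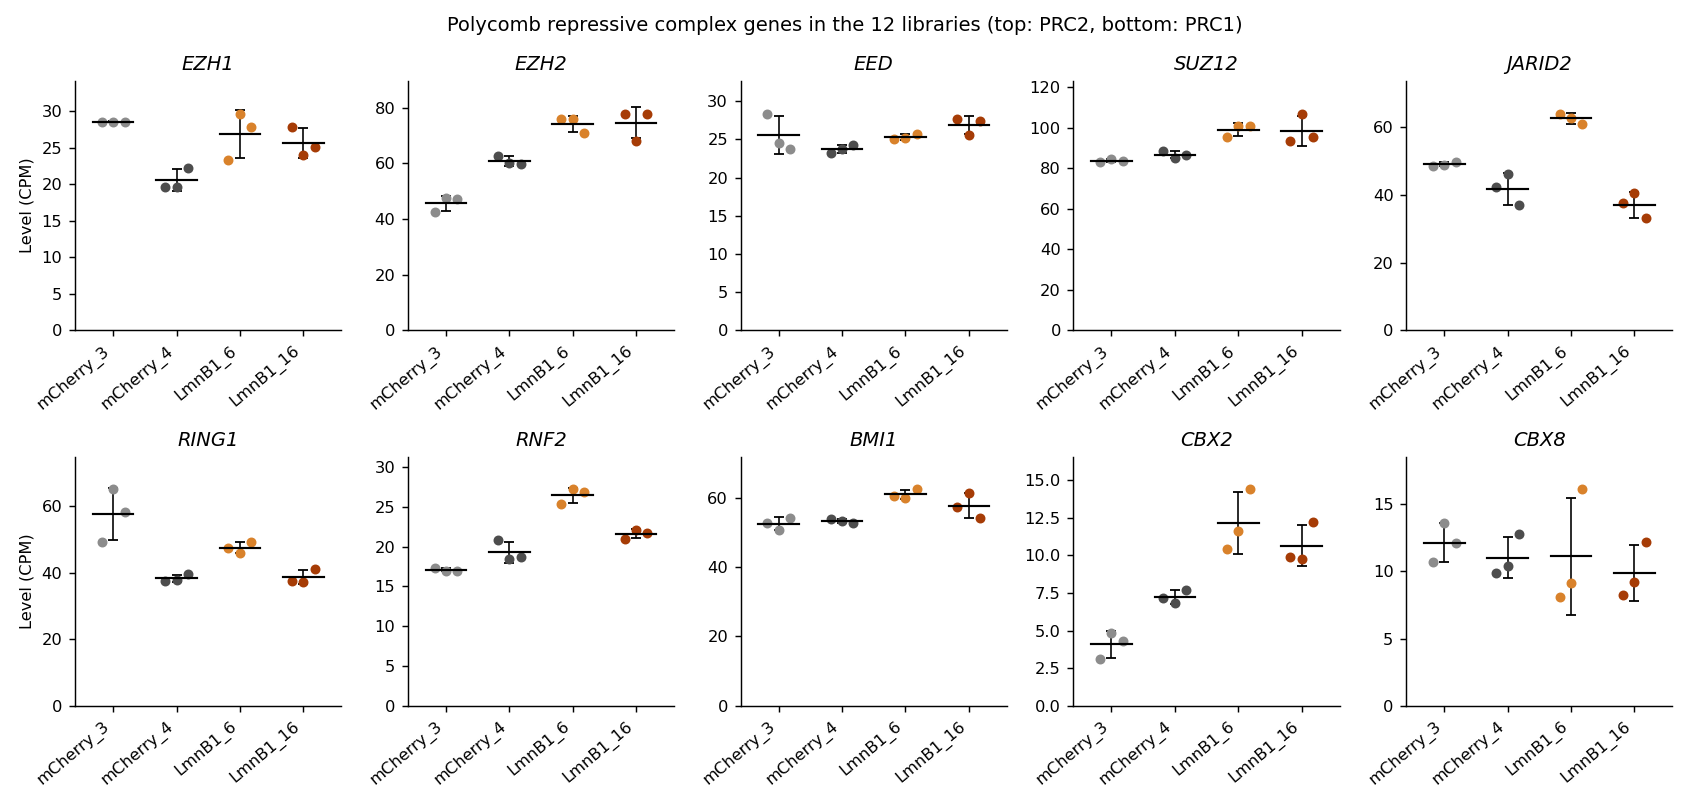
Level of each member in CPM (vertical axis, from 0) in the 12 libraries, grouped by clone. Points are libraries, horizontal lines the mean and error bars the SD of the 3 libraries. EZH2, SUZ12, RNF2 and CBX2 lie higher in all 6 LmnB1 libraries than in all 6 mCherry libraries, whereas JARID2 is highest in LmnB1_6 and lowest in LmnB1_16.

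EZH2 (ENSG00000106462.12, chromosome 7, 148807383 to 148884321, minus strand, GRCh38), the main methyltransferase of PRC2, stood at 42.6, 47.5 and 47.0 CPM in mCherry_3 and at 62.7, 60.1 and 59.7 in mCherry_4. In LmnB1_6 it was at 76.0, 75.8 and 71.0 CPM and in LmnB1_16 at 77.9, 68.2 and 77.8. The lowest LmnB1 library was above the highest mCherry library, and the LmnB1 clones differed from each other by a log2 fold change of 0.01 (95% interval -0.13 to 0.15). The log2 fold change between the constructs was 0.48 (SE 0.10, edgeR adjusted p = 0.00725), a fold of 1.4. The control clones also differed, EZH2 being higher in mCherry_4 than in mCherry_3 by a log2 fold change of 0.41 (SE 0.07, edgeR adjusted p = 0.000151). Against mCherry_4 alone the log2 fold change was 0.29 in LmnB1_6 and 0.30 in LmnB1_16 (SE 0.07 each, edgeR adjusted p = 0.00248 and 0.00529). Against mCherry_3 it was 0.70 and 0.71.

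EZH1 (ENSG00000108799.13, chromosome 17, 42700275 to 42745049, minus strand), the alternative enzyme, stood at 28.5, 28.6 and 28.6 CPM in mCherry_3 and was lowest in mCherry_4, at 19.7, 19.7 and 22.3. Its levels of 23.3, 29.7 and 27.8 CPM in LmnB1_6 and 27.9, 24.0 and 25.1 in LmnB1_16 lay above mCherry_4 in every library and, apart from 1 LmnB1_6 library, below mCherry_3. The construct comparison gave a log2 fold change of 0.10 (95% interval -0.15 to 0.35, edgeR adjusted p = 0.583), and without mCherry_4 its sign turned (-0.12, adjusted p = 0.326). EZH1 was lower in mCherry_4 than in mCherry_3 by -0.48 on the log2 scale (SE 0.09, edgeR adjusted p = 0.000816), while EZH2 was higher there.

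The TPM of both enzymes together was 48.1 ± 0.517 in mCherry_3 and 48.3 ± 2.04 in mCherry_4, against 59.8 ± 3.30 in LmnB1_6 and 60.4 ± 0.814 in LmnB1_16 (SD, n = 3). This sum was chosen after its values were seen. The control clones thus had like totals made of different shares, with an EZH2 to EZH1 ratio of 1.66 ± 0.27 in mCherry_3 and 3.19 ± 0.707 in mCherry_4. The ratio was 3.15 ± 1.05 in LmnB1_6 and 3.49 ± 0.217 in LmnB1_16. Over 6 against 6 libraries the mean log2 ratio differed by 0.52 (exact permutation test, two-sided, p = 0.0844, adjusted over 3 ratios p = 0.0844). Without mCherry_4 the difference was 0.99 (exact permutation p = 0.0119), and without mCherry_4 replicate 2 it was 0.68 (exact permutation p = 0.0216), whereas without mCherry_3 it was 0.05 (exact permutation p = 0.821). The value of 0.0119 is the smallest p that 3 against 6 libraries allow, and those 3 come from 1 clone.

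**Figure D2:**
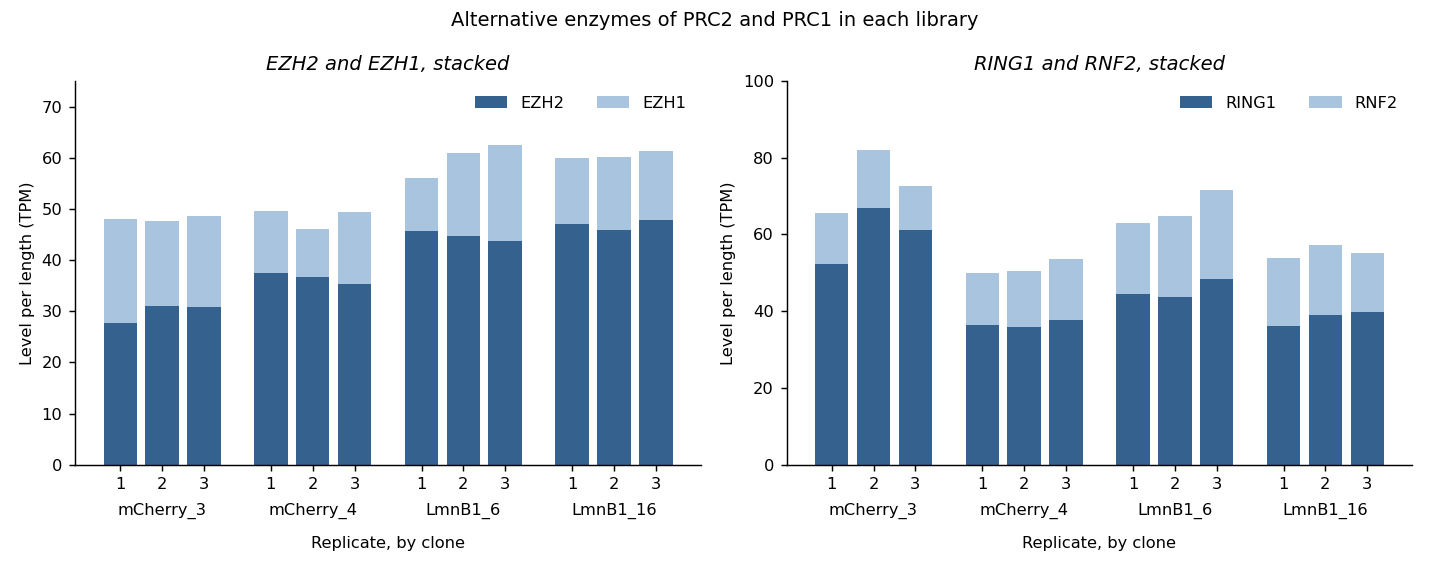
Stacked levels in TPM (vertical axis, from 0) of the enzymes of PRC2 (left, EZH2 and EZH1) and of PRC1 (right, RING1 and RNF2), 1 bar per library in replicate order within each clone. The summed EZH bars reach 46.0 to 49.6 TPM in the mCherry libraries and 56.1 to 62.4 in the LmnB1 libraries, while the summed RING1 and RNF2 bars are tallest in mCherry_3.

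SUZ12 (ENSG00000178691.11, chromosome 17, 31937018 to 32001045, plus strand), a core subunit that PRC2 needs for its stability, was at 83.1, 84.7 and 83.6 CPM in mCherry_3 and 88.7, 84.9 and 86.6 in mCherry_4. It was at 95.3, 101 and 101 CPM in LmnB1_6 and 93.4, 107 and 95.3 in LmnB1_16. The groups did not overlap, and clones of the same construct differed little, with log2 fold changes of 0.05 between the mCherry clones (95% interval -0.07 to 0.17) and -0.01 between the LmnB1 clones (-0.13 to 0.11). The difference was small, a log2 fold change of 0.21 (SE 0.04, edgeR adjusted p = 0.00869) or a fold of 1.16. Without mCherry_3 its adjusted p was 0.0802 and without LmnB1_6 it was 0.0514. SUZ12P1, a pseudogene copy that can take reads of SUZ12, stayed between 3.13 and 5.10 CPM in all libraries.

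EED (ENSG00000074266.22, chromosome 11, 86244544 to 86278813, plus strand), the core subunit that binds the finished mark, ranged from 23.2 to 28.4 CPM over the mCherry libraries and from 25.0 to 27.7 over the LmnB1 libraries. The ranges overlapped, and the log2 fold change was 0.08 (95% interval -0.05 to 0.21, edgeR adjusted p = 0.378). EED was called in none of the 6 contrasts between clones, whose smallest adjusted p was 0.153, although 1 contrast (LmnB1_16 against mCherry_4) had an unadjusted p of 0.0387.

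JARID2 (ENSG00000008083.14, chromosome 6, 15246296 to 15522040, plus strand) separated the LmnB1 clones from each other. It was at 64.1, 62.9 and 60.9 CPM in LmnB1_6 and at 37.6, 40.5 and 33.1 in LmnB1_16, with 48.6, 49.0 and 49.8 in mCherry_3 and 42.3, 46.3 and 36.9 in mCherry_4. LmnB1_6 lay above both control clones and LmnB1_16 below mCherry_3, overlapping mCherry_4. LmnB1_16 differed from LmnB1_6 by a log2 fold change of -0.76 (SE 0.08, edgeR adjusted p = 1.74e-06). Against mCherry_3 the same gene was higher in LmnB1_6 (0.35, adjusted p = 0.00177) and lower in LmnB1_16 (-0.41, adjusted p = 0.000775), both by edgeR. In the construct comparison these gave a log2 fold change of 0.13 (95% interval -0.23 to 0.50, edgeR adjusted p = 0.612), which became 0.46 (adjusted p = 0.00374) without LmnB1_16 and -0.29 (adjusted p = 0.115) without LmnB1_6. An antisense gene overlaps JARID2, and reads of the pair cannot be told apart where strand is unknown.

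The letters of an E2F-type motif were looked for in the promoters because E2F factors drive genes of the cell cycle and EZH2 is described as one of their targets. The letters searched were TTTCCCGC, TTTCGCGC, TTTGCCGC and TTTGGCGC on both strands, in RefSeq windows (GRCh38.p14) from 250 bases before to 50 bases after each start. Of the members 8 had an entry, with 11 windows in all, and 3 held the letters: EZH2, SUZ12 and EZH1. Of 35116 windows of this length from RefSeq, 3.31% held them, and 3.99% of 27305 genes had a window with them. These 3 windows are shown 5′ to 3′ on the strand of the gene with the motif in capitals.
EZH2 chr7:148884242-148884541 minus strand: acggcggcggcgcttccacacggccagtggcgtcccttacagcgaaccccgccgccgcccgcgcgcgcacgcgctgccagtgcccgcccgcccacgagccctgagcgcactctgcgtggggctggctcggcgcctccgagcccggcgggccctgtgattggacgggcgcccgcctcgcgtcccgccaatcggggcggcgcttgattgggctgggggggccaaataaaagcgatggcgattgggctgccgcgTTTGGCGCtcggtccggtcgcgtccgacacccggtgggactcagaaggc
SUZ12 chr17:31936757-31937056 plus strand: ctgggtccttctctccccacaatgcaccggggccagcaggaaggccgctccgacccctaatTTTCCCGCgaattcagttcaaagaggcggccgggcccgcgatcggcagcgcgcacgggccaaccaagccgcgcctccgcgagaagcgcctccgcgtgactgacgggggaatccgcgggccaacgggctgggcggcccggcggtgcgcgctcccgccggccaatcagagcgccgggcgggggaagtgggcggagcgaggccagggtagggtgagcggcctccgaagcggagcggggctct
EZH1 chr17:42744991-42745290 minus strand: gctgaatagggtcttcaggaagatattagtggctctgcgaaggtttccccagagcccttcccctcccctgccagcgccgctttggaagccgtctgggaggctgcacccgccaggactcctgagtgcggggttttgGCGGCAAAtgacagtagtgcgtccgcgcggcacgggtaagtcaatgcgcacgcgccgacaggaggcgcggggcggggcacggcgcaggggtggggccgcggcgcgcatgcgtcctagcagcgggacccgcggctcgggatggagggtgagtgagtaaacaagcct
The match began 1 base after the start in EZH2 (TTTGGCGC) and 189 bases before it in SUZ12 (TTTCCCGC). In EZH1 it lay 115 bases before the start on the opposite strand, so that the window reads GCGGCAAA. EZH2 and SUZ12 were called higher in the LmnB1 libraries and EZH1 was not. RNF2 and BMI1, which were also called higher, held none of these letters in their windows. The EZH2 window also held CCAAT, on either strand, 4 times, a motif found in 34.6% of all windows. A match is a description of letters, and binding was not measured.

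Among the subunits of PRC1, CBX2 (ENSG00000173894.11, chromosome 17, 79778132 to 79787983, plus strand), a chromodomain subunit that compacts chromatin, had the largest fold change of the 10 members. It was at 3.12, 4.87 and 4.33 CPM in mCherry_3, from 82 to 136 counts, and at 7.18, 6.84 and 7.71 in mCherry_4. In LmnB1_6 it was at 10.4, 11.6 and 14.4 CPM and in LmnB1_16 at 9.93, 9.78 and 12.2. The groups did not overlap, and the log2 fold change was 1.01 (SE 0.21, edgeR adjusted p = 0.00841), a fold of 2.01. The control clones again differed, mCherry_4 being higher than mCherry_3 by 0.82 (SE 0.17, edgeR adjusted p = 0.0013). Against mCherry_4 alone the log2 fold change was 0.75 in LmnB1_6 (SE 0.16, edgeR adjusted p = 0.00141) and 0.56 in LmnB1_16 (SE 0.16, edgeR adjusted p = 0.0271). Without LmnB1_6 the construct difference was 0.91 with an edgeR adjusted p of 0.0529.

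CBX8 (ENSG00000141570.11, chromosome 17, 79792132 to 79801683, minus strand), another chromodomain subunit, lies 4148 bases from CBX2 and points towards it. It was at 9.88 to 13.6 CPM in the mCherry libraries and 8.09 to 16.1 in the LmnB1 libraries, which overlapped. Within LmnB1_6 its values of 8.09, 9.17 and 16.1 CPM spread more than those of any other member in a clone relative to the mean. In each clone its lowest library was replicate 1 (10.7, 9.88, 8.09 and 8.27 CPM in mCherry_3, mCherry_4, LmnB1_6 and LmnB1_16). The log2 fold change was -0.14 (95% interval -0.51 to 0.23, edgeR adjusted p = 0.601). An antisense gene overlaps CBX8 as well. The ratio of CBX8 to CBX2 in TPM was 4.72 ± 0.91 in mCherry_3 and 2.48 ± 0.522 in mCherry_4, against 1.52 ± 0.378 in LmnB1_6 and 1.83 ± 0.511 in LmnB1_16 (SD, n = 3). Its mean log2 was lower in the LmnB1 libraries by -1.05 (exact permutation test, two-sided, p = 0.00433, adjusted over 3 ratios p = 0.013). Without mCherry_3 the difference was -0.59 (exact permutation p = 0.0714).

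RNF2 (ENSG00000121481.11, chromosome 1, 185045364 to 185102608, plus strand), the more active of the ubiquitin ligases, was at 17.3, 17.0 and 17.0 CPM in mCherry_3 and 20.8, 18.4 and 18.7 in mCherry_4. It was at 25.4, 27.2 and 26.8 CPM in LmnB1_6 and 21.0, 22.1 and 21.7 in LmnB1_16. LmnB1_6 stood clear of the other clones, while the lowest LmnB1_16 library (21.0) was only just above the highest mCherry_4 library (20.8). The log2 fold change was 0.40 (SE 0.09, edgeR adjusted p = 0.00956), a fold of 1.32. LmnB1_16 was lower than LmnB1_6 by -0.29 (SE 0.08, edgeR adjusted p = 0.00594) and its difference from mCherry_4 was not called (0.16, edgeR adjusted p = 0.181). Without LmnB1_6 the construct difference was 0.25 (edgeR adjusted p = 0.0874), and without mCherry_3 it was 0.32 (edgeR adjusted p = 0.12).

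RING1 (ENSG00000204227.5, chromosome 6, 33208495 to 33212722, plus strand), the alternative ligase, was highest in mCherry_3, at 49.3, 65.0 and 58.3 CPM, and at 37.6, 37.7 and 39.5 in mCherry_4. It was at 47.3, 46.0 and 49.2 CPM in LmnB1_6 and 37.6, 37.2 and 41.0 in LmnB1_16, where it overlapped mCherry_4. The construct comparison gave -0.15 (95% interval -0.47 to 0.16, edgeR adjusted p = 0.479), and the sign turned without mCherry_3 (0.17, adjusted p = 0.357). Without mCherry_4 RING1 was called lower (-0.42, edgeR adjusted p = 0.021). Between clones of 1 construct RING1 was lower in mCherry_4 than its level in mCherry_3 (-0.59, edgeR adjusted p = 4.74e-05) and lower in LmnB1_16 than in LmnB1_6 (-0.30, edgeR adjusted p = 0.0121). The ratio of RNF2 to RING1 in TPM was 0.221 ± 0.0332 in mCherry_3 and 0.400 ± 0.0288 in mCherry_4, against 0.461 ± 0.0395 in LmnB1_6 and 0.448 ± 0.0525 in LmnB1_16 (SD, n = 3). Its mean log2 was higher in the LmnB1 libraries by 0.61 (exact permutation test, two-sided, p = 0.0108, adjusted over 3 ratios p = 0.0162), but by 0.18 without mCherry_3 (exact permutation p = 0.107). The TPM of both ligases together was 73.4 ± 8.37 in mCherry_3 and 51.4 ± 2.01 in mCherry_4, against 66.5 ± 4.65 in LmnB1_6 and 55.5 ± 1.63 in LmnB1_16, which did not part the constructs.

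BMI1 (ENSG00000168283.14, chromosome 10, 22321211 to 22331484, plus strand), a PCGF subunit of canonical PRC1, was at 52.7, 50.7 and 54.2 CPM in mCherry_3 and 53.9, 53.2 and 52.7 in mCherry_4. It was at 60.4, 59.9 and 62.4 CPM in LmnB1_6 and 57.4, 61.3 and 54.1 in LmnB1_16, of which the last fell within the mCherry range. The log2 fold change was 0.16 (SE 0.05, edgeR adjusted p = 0.0321), a fold of 1.12. This call was the least stable of the 5: it was kept in 10 of 24 other settings, and leaving out any 1 library of mCherry_3 or of LmnB1_6, or mCherry_4 replicate 3, moved the adjusted p to between 0.0509 and 0.0719. On TPM the log2 fold change was 0.08 (limma adjusted p = 0.521). The readthrough gene COMMD3-BMI1, which overlaps BMI1, was listed at 0 in every library.

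**Figure D3:**
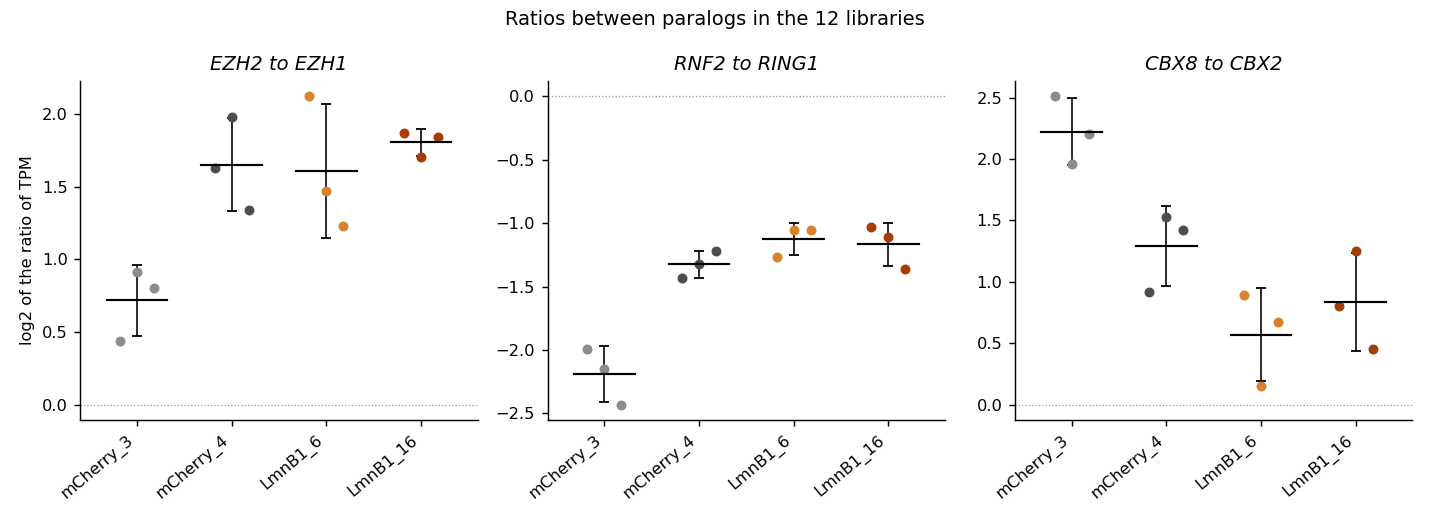
log2 of the ratio of TPM (vertical axis) between 3 pairs of paralogs in the 12 libraries. Points are libraries, horizontal lines the mean and error bars the SD of the 3 libraries of a clone. mCherry_3 stands apart from the other 3 clones in each ratio, at 1.36 to 1.88 for EZH2 to EZH1 before taking logs.

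For these ratios the 2 clones of each construct are the independent units, and a permutation of 2 clones against 2 cannot give a p under 0.333. The smallest p that 6 against 6 libraries allow is 0.00216. TPM rests on the effective length that the quantification assigned to each gene, which for EZH1 ran from 2160 to 3110 bases and for CBX2 from 2570 to 4260 between libraries, against 2290 to 2400 for EZH2. Ratios taken from CPM gave the same direction and side of the threshold for all 3 pairs.

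Members also differed between clones that carry the same construct. Between the mCherry clones 5 of 10 members were called (2 higher and 3 lower in mCherry_4), beside 37.4% of all genes. Between the LmnB1 clones 3 of 10 were called, all lower in LmnB1_16 (JARID2, RING1 and RNF2), beside 34.4% of all genes. Of LmnB1_6 against mCherry_3, 6 members were higher and 1 lower (52.8% of all genes called), and against mCherry_4 8 were higher and 0 lower (37.2%). Of LmnB1_16 against mCherry_3, 4 were higher and 2 lower (44.4%), and against mCherry_4 4 were higher and 0 lower (15.7%). In both contrasts with mCherry_4, 0 members were lower at an unadjusted p under 0.05 as well, and 0 were higher at that p in LmnB1_16 than in LmnB1_6. These 4 contrasts share their control and LmnB1 libraries in pairs and are given side by side. In 6 of 10 members (EZH1, EZH2, JARID2, RING1, RNF2 and CBX2) at least 1 pair of clones of the same construct differed by a called amount, and in SUZ12, BMI1, EED and CBX8 neither pair did. The share of all genes called in at least 1 of these pairs was not computed. The count of 6 is therefore not read as a trait of the members.

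**Figure D4:**
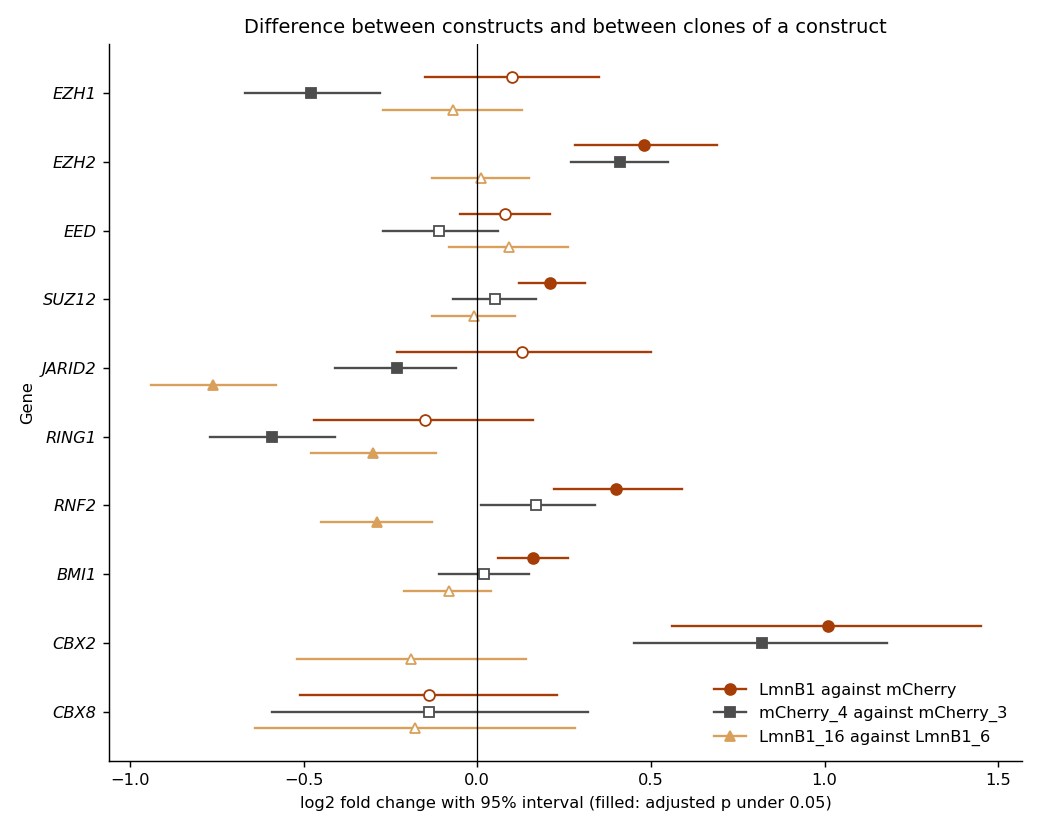
log2 fold change (horizontal axis) of each member between the constructs and between the clones of each construct, with 95% intervals. Filled markers have an edgeR adjusted p under 0.05. For CBX2 and EZH2 the difference between the mCherry clones (0.82 and 0.41) is nearly as large as that between the constructs (1.01 and 0.48), whereas for SUZ12 it is 0.05 against 0.21.

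The other genes of the pathway were mostly not called. Of 42 further subunits and opposing enzymes 40 could be tested, and 8 were higher and 1 lower (edgeR), with a median log2 fold change of 0.09. These 9 are 22.5% of the genes tested, near the 17.8% of all genes. The count was 4 when any 1 library of mCherry_3 or LmnB1_6 replicate 1 was left out, 5 without LmnB1_6 replicate 2, 1 without mCherry_3 and 3 without LmnB1_6. Among the other PRC2 subunits 3 of 8 were higher. RBBP4, a histone-binding subunit, had means of 138 and 153 CPM in the mCherry clones and 175 and 172 in the LmnB1 clones (log2 fold change 0.25, edgeR adjusted p = 0.0102). MTF2, an accessory subunit that binds CpG-rich DNA, went from 25.1 and 26.2 to 31.5 and 31.4 CPM (0.29, edgeR adjusted p = 0.0183). Its relative PHF19 was at 62.6 CPM in mCherry_3 and 112 in mCherry_4, against 126 and 130 in the LmnB1 clones (0.56, edgeR adjusted p = 0.0471).

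Of 25 other PRC1 subunits 5 were higher and 1 was lower. The scaffold of the variant complex with PCGF6, MGA (ENSG00000174197.17), a large DNA-binding protein, had the smallest adjusted p. It had 6, 7 and 4 counts in the mCherry_3 libraries (0.228, 0.251 and 0.148 CPM) and was at 2.48, 2.84 and 2.80 CPM in mCherry_4. In LmnB1_6 it was at 23.5, 23.4 and 26.8 CPM and in LmnB1_16 at 12.8, 16.6 and 14.3. All 4 clones were separate. MGA was the only 1 of these 40 genes called higher in all 4 contrasts of clones, which held for 1.77% of all genes. The log2 fold change of MGA was 3.77 (SE 0.65, edgeR adjusted p = 0.00389), and its size is uncertain at the few counts of mCherry_3. The effective length assigned to MGA was 1950 to 3440 bases in the mCherry_3 libraries and 8340 to 11800 in the other clones. PHC2, a polyhomeotic subunit, had means of 148, 169, 198 and 175 CPM in mCherry_3, mCherry_4, LmnB1_6 and LmnB1_16 (0.24, edgeR adjusted p = 0.0285), and RYBP, of variant PRC1, 37.3, 37.1, 40.1 and 48.0 CPM (0.24, edgeR adjusted p = 0.0399). PCGF6 and KDM2B, named here to complete the count, were the other called genes, both higher.

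AUTS2, of a variant PRC1 linked to active transcription, was the 1 gene called lower, and its call rested on mCherry_3. It had 42, 46 and 32 counts in the mCherry_3 libraries and at most 2 in any other library, among them mCherry_4, so no fold is given between the constructs. None of the 7 opposing enzymes that could be tested was called by edgeR (1 higher at an unadjusted p under 0.05), and DESeq2 called 1. BAP1, the deubiquitinase that removes the mark of PRC1, had a log2 fold change of 0.01 (edgeR adjusted p = 0.904), and its cofactor ASXL1 had means of 122 to 139 CPM in the 4 clones (0.10, edgeR adjusted p = 0.225).

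**Figure D5:**
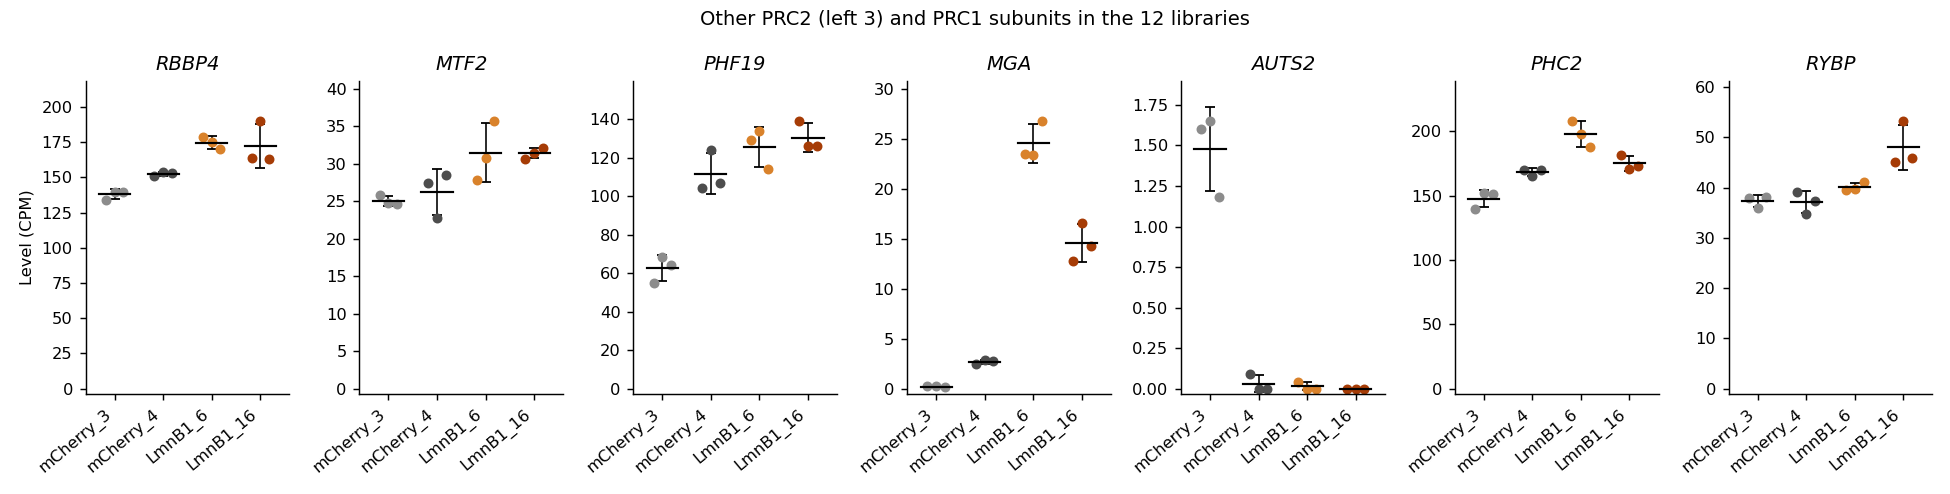
Level in CPM (vertical axis) of 3 further PRC2 subunits and 4 further PRC1 subunits in the 12 libraries, with the mean and SD of each clone. The mean of MGA is 0.209 CPM in mCherry_3 and 2.71 in mCherry_4, beside 24.6 in LmnB1_6 and 14.6 in LmnB1_16, and AUTS2 is above 0.0903 CPM in the mCherry_3 libraries only.

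Developmental regulators that Polycomb is widely described to bind in embryonic stem cells ranged from silent to well expressed. Of 90 such genes 43 had 0 counts in all libraries, among them 20 of the 23 HOXA, HOXC and HOXD genes, whose highest total was 2 counts. Of the 36 that could be tested, 7 were called higher and 0 lower by edgeR, which is 19.4%. Among all genes 17.8% were called in either direction and 8.58% were called higher. At an unadjusted p under 0.05 edgeR gave 15 higher and 2 lower, and DESeq2 called 10 higher and 0 lower. Without LmnB1_6 edgeR called 5 of 34 higher and 2 lower (6 and 7 at an unadjusted p under 0.05). Genes that passed the filter only through the clones where they are high had to differ, so these counts do not speak for the list. BMP4, a signalling ligand, was at 11.6 CPM in each mCherry clone, with 143 in LmnB1_6 and 32.4 in LmnB1_16; its log2 fold change was 2.92 (SE 0.45, edgeR adjusted p = 0.00208). SOX9 was at 42.6 and 67.9 CPM in the mCherry clones and 83.5 and 89.3 in the LmnB1 clones (0.65, edgeR adjusted p = 0.0127). LHX1 (0.255 to 1.26 CPM in the clone means) and SOX2 (2.17 CPM in LmnB1_6, 0.274 in LmnB1_16, 0.044 in mCherry_4 and 0.0 in mCherry_3) were called at very low levels. BMP4 and SOX9 were called higher in all 4 contrasts of clones, as were 1.77% of all genes. LHX1 was too, but LHX1 and SOX2 passed the filter only through LmnB1 libraries, and no result is read from their calls.

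The summed TPM of the 90 regulators was 353 ± 5.06 in mCherry_3 and 382 ± 10.2 in mCherry_4, against 869 ± 13.1 in LmnB1_6 and 417 ± 18.3 in LmnB1_16 (SD, n = 3), so that LmnB1_6 stood alone. WNT5A, named after its values were seen, was at 164 TPM in LmnB1_6. It was at 15.3, 22.8 and 21.0 TPM in mCherry_3, mCherry_4 and LmnB1_16. BMP4 was at 138 TPM in LmnB1_6 and at most 33.2 in another clone. Some HOXB genes were also part of this difference. HOXB3, named after its values were seen, was at 103 CPM in LmnB1_6 and at 5.83, 1.80 and 2.78 in mCherry_3, mCherry_4 and LmnB1_16. Against mCherry_3, HOXB7 was lower in LmnB1_6 (3.4 against 4.82 TPM) and HOXB4 was close (5.7 against 4.97 TPM).

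Genes of DNA replication and mitosis also differed between the libraries, and their part in the results for the members was not tested. Of 28 replication genes 12 were called higher and 0 lower by edgeR (15 and 0 at an unadjusted p under 0.05, 13 and 0 called by DESeq2), beside 8.58% of all genes called higher. In fits chosen after seeing the data, 4 were called without mCherry_3, 5 without LmnB1_6, 1 with clone as a random effect and 0 with counts summed per clone (3 higher at an unadjusted p under 0.05). The summed fit called 0 of all genes as well. Their summed TPM was 2200 ± 151 in mCherry_3 and 2680 ± 63.3 in mCherry_4, against 2780 ± 112 in LmnB1_6 and 3100 ± 92.2 in LmnB1_16. RFC3, MCM5, POLD1 and UNG had the smallest adjusted p among them, with log2 fold changes of 0.57, 0.49, 0.47 and 0.47. Of 20 mitotic genes 1 was called between the constructs (5.0%, beside 17.8% of all genes). This was TTK (0.57, edgeR adjusted p = 0.0467), which was not called without mCherry_3 or LmnB1_6. At an unadjusted p under 0.05 edgeR gave 13 mitotic genes higher and 0 lower, and DESeq2 called 8 higher and 0 lower. The median log2 fold change was 0.51 over the mitotic genes, 0.3 over the replication genes and 0.0 over all genes. The few mitotic calls by edgeR are thus not read as a lack of difference. All 20 were called higher in mCherry_4 than in mCherry_3, beside 37.4% of all genes called in either direction. Their summed TPM was 1200 ± 93.0 in mCherry_3 against 2110 ± 80.5, 2210 ± 68.9 and 2380 ± 115 in mCherry_4, LmnB1_6 and LmnB1_16. Against mCherry_4 7 replication genes were higher and 3 lower in LmnB1_6 (35.7% called, near the 37.2% of all genes). In LmnB1_16 10 were higher and 0 lower (35.7% called, beside 15.7% of all genes). In these mixed RNA samples more cells in a phase and more RNA per cell cannot be told apart.

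The genes whose levels ran most like those of the called members over the 12 libraries were named from 11799 protein-coding genes by Pearson's r of log2 CPM, as a description. The libraries share clones and depth, and no function is read from the likeness. For EZH2 they were FANCA (0.99), THOP1 (0.98) and CDK4 (0.98). For CBX2 they were HNRNPD (0.98), FBL (0.97) and LMNB2 (0.96), the gene of lamin B2, and for RNF2 IGF2BP1, NR2F2 and PAPPA (0.98 each). For SUZ12 they were ZNF136 (0.97), UPF2 (0.97) and RBPJ (0.96), and for BMI1 RBPJ (0.94), NPAS2 (0.93) and ITGB8 (0.93). RBPJ, the DNA-binding factor of Notch signalling, thus ran with both SUZ12 and BMI1. Between members r was 0.95 for EZH2 and CBX2, 0.89 for SUZ12 and BMI1 and -0.16 for EZH2 and EZH1.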

How the data were processed

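Per the file headers, the authors deposited for each of the 12 libraries estimated counts of fragments, TPM and effective length per gene. STAR, Salmon and DESeq2 are listed without versions, with the build GRCh38, per the submitters' processing notes. The annotation release and the strand setting are not given in the sources used, and positions come from GENCODE 29. The deposited estimated counts (20.6 to 29.48 M per library, 31.3% to 32.6% of detected genes not whole) were rounded. Genes kept by filterByExpr by clone (minimum count 10, minimum total 15) got TMM factors of 0.948 to 1.06 and were tested by glmQLFit and glmQLFTest in edgeR 4.0.16 (R 4.3.3), 6 against 6 libraries and with the 4 clones as groups. Benjamini-Hochberg adjustment ran over all 15388 genes, with calls under 0.05. The 95% intervals use the t quantile at the total degrees of freedom of edgeR's fit (12.8 and 15.8 in the respective fits). The biological coefficient of variation was 0.262 between libraries of a construct and 0.0842 within clones. No 2 libraries of a clone agreed within sampling noise (chi-square per degree of freedom at least 3.85). The effective length deposited by the authors was only described. The TPM that the authors deposited served for levels between genes, for ratios (exact permutation over libraries) and, as log2(TPM + 0.5), for an alternative in limma 3.58.1. Other alternatives were DESeq2 1.42.0, upper-quartile factors, no filter, a replicate block, counts summed per clone, clone as a random effect, clones as groups, and leaving out each library or clone. The tests were tested on simulated data. Named genes are the members, up to 4 called genes of each other list by adjusted p (with none called, the 2 of highest level), and the 3 protein-coding genes most correlated with each called member. Genes named outside this rule are marked where they appear. Members and lists were chosen with earlier results of these data known. Proteins, and promoters of CBX2 and CBX8, were not used here.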

Additional observations from a re-analysis of the deposited data

Results flagged for a closer look

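EED in mCherry_3 replicate 1 reached 28.4 CPM, the highest of the 6 mCherry libraries and far from the others, which ran from 23.2 to 24.6 CPM. Of 20 groups of 6 libraries looked at in this way it was the only 1 with such a library. No rate expected by chance was computed, and each group mixes 2 clones, so 1 such library among 20 groups is not read as a result.

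JARID2, RING1 and RNF2 differed between the LmnB1 clones by the test of that difference itself in edgeR with the 4 clones as groups. The log2 difference of LmnB1_16 minus LmnB1_6 was -0.76 for JARID2 (adjusted p = 1.74e-06), -0.3 for RING1 (adjusted p = 0.0121) and -0.29 for RNF2 (adjusted p = 0.00594). All 3 genes were lower in LmnB1_16, in each of its 3 libraries. The clones carry the same construct, and LMNB1 itself differed between them by -0.24 on the log2 scale (edgeR adjusted p = 0.0117).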

How the results depend on the processing

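The alternatives were fitted to the members, the pathway genes, the target regulators and the 3 ratios. By edgeR 5 members were called between the constructs; limma on log2(TPM + 0.5) called 3, counts summed per clone 0, clone as a random effect 0, and the fits without the clone mCherry_3 or LmnB1_6 called 2 and 1. Of all genes, 2743 were called: 1688 by limma on TPM, 1648 with the replicate block, 0 with counts summed per clone (267 higher and 375 lower at an unadjusted p under 0.05), 163 with clone as a random effect, 7141 with clones as groups, 1392 to 3078 with 1 library left out, and 647, 4958, 1263 and 4808 without mCherry_3, mCherry_4, LmnB1_6 and LmnB1_16. The 9 calls among pathway genes became 5 without the filter, 3 by limma on TPM, 4 with the replicate block, 0 summed, 1 with the random effect, 18 with clones as groups, 4 to 8 with 1 library left out, and 1 and 3 without mCherry_3 and LmnB1_6. The 7 calls among target regulators became 4 by limma on TPM, 0 summed, 1 with the random effect, 24 with clones as groups, 5 to 9 with 1 library left out, and 3, 12 and 22 without mCherry_3, mCherry_4 and LmnB1_16. Without LmnB1_6 the count stayed at 7, of which 5 were higher and 2 lower. In fits chosen after seeing the data, the 1 call among mitotic genes became 8 by DESeq2 and 4 by limma on TPM, and the 5 among pigment epithelium markers became 0 summed and 0 with the random effect (1 higher and 5 lower at an unadjusted p under 0.05 in the latter).

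In the clone contrasts limma on TPM called 1 member in all 4 (edgeR 3), 4 for LmnB1_6 against mCherry_3 (edgeR 7), 4 for LmnB1_6 against mCherry_4 (edgeR 8), 1 for LmnB1_16 against mCherry_4 (edgeR 4) and 1 for LmnB1_16 against LmnB1_6 (edgeR 3). With 1 library left out the count in all 4 contrasts was 1 to 3 and that for LmnB1_16 against mCherry_4 was 1 to 4. Signs reversed for EZH1 on TPM (-0.05) and without mCherry_4 (-0.12), for JARID2 without LmnB1_6 (-0.29) and for RING1 without mCherry_3 (0.17); the cause was not tested. RING1 was called lower without mCherry_4 (-0.42) and JARID2 higher without LmnB1_16 (0.46). The EZH2 to EZH1 difference was 0.68 without mCherry_4 replicate 2 (range 0.37 to 0.68 with 1 library left out), 0.99 without mCherry_4 and 0.05 without mCherry_3 (exact permutation p = 0.821). That of RNF2 to RING1 was 0.18 without mCherry_3 and 0.59 without LmnB1_6, and that of CBX8 to CBX2 was -0.59 without mCherry_3. EZH2 kept its call in 22 of 24 alternatives, CBX2 in 21, RNF2 in 20, SUZ12 in 19 and BMI1 in 10; EED and CBX8 were called in 0, with smallest adjusted p of 0.14 and 0.142.

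Replicate numbers recur in the 4 clones but do not pair the libraries over all tested genes. The 18 pairs of the same number had correlated deviations of -0.05 to 0.18 (median 0.02, against -0.01 for other pairs). Of 12 libraries 5 correlated best with their own number. Among the members CBX8 was lowest in replicate 1 of every clone. With the replicate block 4 members were called, BMI1 being lost (adjusted p = 0.0634), and the ratios differed by 0.52, 0.61 and -1.05. CBX2 had 82 to 429 counts per library, and its SE between the constructs (0.21) was the largest of the members; between clones that of CBX8 was (0.21 to 0.22).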
